A study of Mus musculus with 15 samples.

Results

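The genes described here encode nuclear subunits of the 5 complexes of oxidative phosphorylation and the assembly factors that share their names. Subunits with other symbols are not among them. Members were chosen by symbol alone: Ndufa, Ndufb, Ndufc, Ndufs and Ndufv genes for complex I, Sdha to Sdhd and the Sdhaf genes for complex II, Uqcr genes for complex III, Cox4 to Cox8 genes for complex IV and Atp5 genes for complex V. Ndufa4 and Ndufa4l2 were counted in complex IV. The rule gave 91 genes of the 22180 genes tested, with 40 in complex I, 8 in complex II, 7 in complex III, 19 in complex IV and 17 in complex V. No measured value entered the choice. Other genes whose symbols match the rule, and the 13 subunits that the mitochondrial genome encodes, were not analysed here, so each statement concerns these nuclear transcripts.

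Oxidative phosphorylation takes electrons from NADH at complex I and from succinate at complex II, passes them through coenzyme Q, complex III and cytochrome c to oxygen at complex IV, and uses the resulting proton gradient to make ATP at complex V. The core subunits carry the flavins, iron-sulfur clusters, haems and catalytic sites, while supernumerary subunits surround them and serve in assembly and stability. Choroid plexus epithelium is rich in mitochondria, which power the ion transport behind the secretion of cerebrospinal fluid, and the factors NRF1, GABP, YY1, the oestrogen-related receptors and MYC are known regulators of many of these genes.

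Transcripts were measured in 15 mouse tissues, which the labels call biological replicates of 3 groups, each on a single-colour Affymetrix array. The 5 choroid plexus carcinomas carried Atoh1-Cre; Myc/Myc; p53fl/fl, the 5 papillomas carried Atoh1-Cre; Myc/Myc, and the 5 samples of normal choroid plexus carried Myc/Myc; p53fl/fl without Cre, all on a C57Bl/6 and 129 mix. Every group therefore held the Myc alleles, papilloma differed from normal tissue in Cre and also in lacking p53fl/fl, and carcinoma differed from papilloma in p53fl/fl. Cre was driven by sequence of Atoh1, so both tumour models are limited to cells in which that sequence had been active and their descendants. Ages were not given. Tumours were collected once the mice became ill.

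All values are log2 values per gene, and a change is a difference of mean log2 values. The lowest and highest array medians over all probe sets were 6.79 and 6.90. A gene was called higher or lower where limma's test, adjusted by Benjamini-Hochberg over the 22180 genes, gave a p under 0.05. Of 10 listed markers of choroid plexus epithelium 8 were measured, among them Ttr, the transthyretin gene, at a mean of 14.46 in carcinoma, 14.47 in papilloma and 14.56 in normal tissue. The array mean of the 8 was 12.58 to 12.91 in carcinoma, 12.68 to 12.93 in papilloma and 13.18 to 13.22 in normal tissue. All 8 had lower means in both tumour types than in normal tissue. Called lower were 4 in carcinoma and 4 in papilloma, beside 19.2% and 16.3% of all genes. Tumour and normal arrays did not overlap for 6 in carcinoma and 7 in papilloma, beside 29.9% and 32.1% of all genes. Normal arrays 2 to 5 held Xist, a transcript of female cells, at 10.69 to 12.48 together with Y-linked transcripts at a mean of 7.72 to 9.74. Each of the other 11 arrays held only 1 of these at such levels. Whether the 4 arrays pool animals of both sexes is not stated by the labels. The total counts of members against normal tissue are therefore also given with normal array 1 alone, and so are the changes of some genes. Counts by complex, class and list rest on all 5 normal arrays. A call printed without a value for normal array 1 alone is not thereby shown to hold under that setting.

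In the tumours the 91 genes did not move as a block. In carcinoma 10 rose and 29 fell against normal tissue, and in papilloma 13 rose and 18 fell. The 39 called in carcinoma were 42.9% of the members, beside 37.9% of all genes tested (18.7% higher and 19.2% lower). The 31 called in papilloma were 34.1%, beside 33.2% of all genes (17.0% higher and 16.3% lower), so both shares were near the background. The median log2 change was -0.10 in carcinoma and -0.02 in papilloma, against -0.02 and 0.01 for all genes. Of the members 3 moved by at least 2-fold in carcinoma and 2 in papilloma. Both comparisons share the 5 normal arrays, and 7 members were called higher and 17 lower in both. The matching shares of all genes are not given here, so these counts do not show a trait of the members. In none of the 3 comparisons were 44 members called. The share of all genes called in none is not given either, so this count shows no trait of the members. The arrays of tumour and normal tissue did not overlap for 24 members in carcinoma, beside 29.9% of all genes, and for 38 in papilloma, beside 32.1% of all genes.

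Members that rose in at least 1 tumour type included Ndufa10 and Ndufs1 of complex I and Sdhd of complex II. Others were the 3 large Uqcr subunits of complex III and Atp5a1, Atp5g2 and Atp5o of complex V. Members that fell in carcinoma included 9 of 26 supernumerary subunits of complex I and 2 of 4 small subunits of complex III. They also included 4 of 5 small membrane subunits of complex V. Of all genes tested, 19.2% were called lower in carcinoma and 16.3% in papilloma. In bulk tissue, fewer cells of a type and less RNA per cell cannot be told apart. Markers of multiciliated cells were lower in the tumours, with 9 of 9 measured genes lower in carcinoma and 9 of 9 in papilloma. Their mean over the list was 7.31 to 8.54 in carcinoma, 7.26 to 7.45 in papilloma and 10.45 to 10.60 in normal tissue, and their part in these changes was not tested. Oligodendrocyte markers were lower for 5 of 5 genes in carcinoma and 3 of 5 in papilloma, and neuron markers for 4 of 7 and 1 of 7. Of 4 macrophage markers 1 was higher in carcinoma, beside 18.7% of all genes. The mean of the 4 was 8.95 and 9.13 on carcinoma arrays 2 and 4, beside 8.16 to 8.28 on the other carcinoma arrays. It was 7.99 to 8.15 in papilloma and 8.04 to 8.30 in normal tissue. The part of these markers in the values of carcinoma arrays 2 and 4 was not tested.

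**Figure D1:**
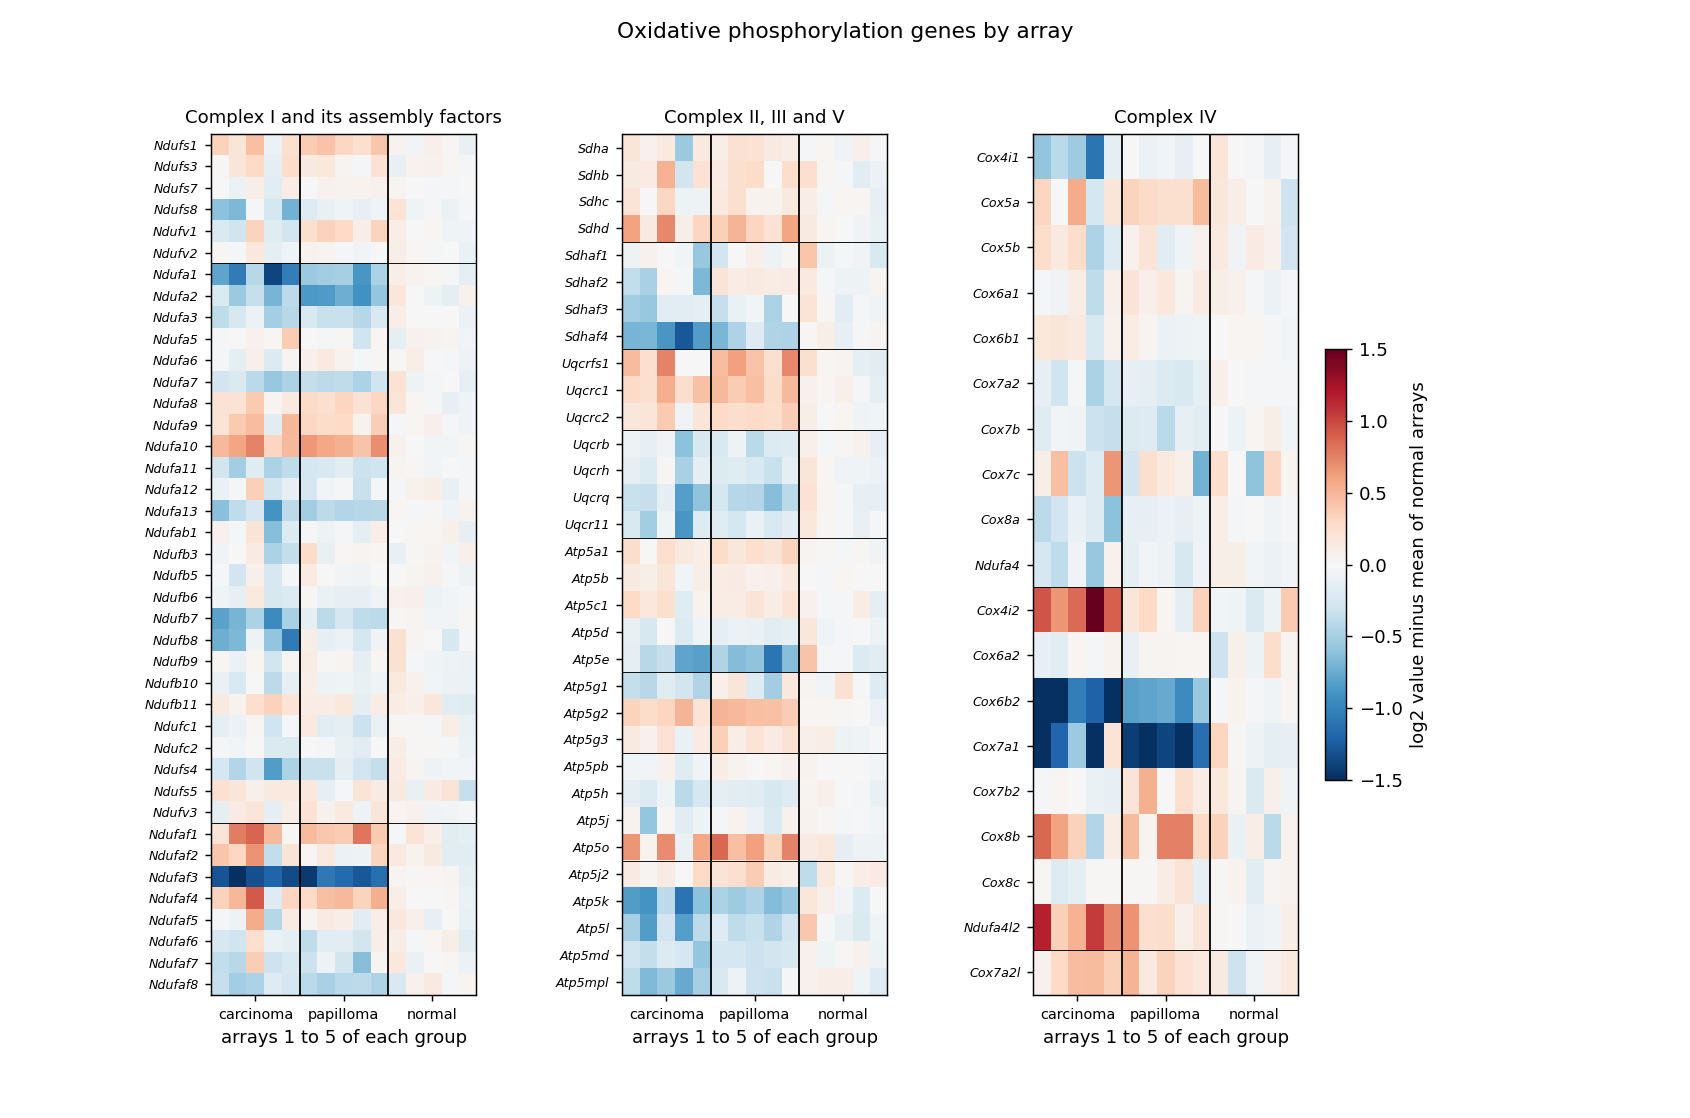
Log2 value of each of the 91 genes on each array minus the mean of the 5 normal arrays, with arrays 1 to 5 of carcinoma, papilloma and normal tissue as columns and horizontal lines between classes of subunit. Red is above and blue below the normal mean, and Cox6b2, Cox7a1 and Ndufaf3 are the darkest blue rows, while Cox4i2 is red in the carcinoma arrays.

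Arrays of a group differed from each other most in carcinoma. The median SD of a member was 0.20 in carcinoma, 0.10 in papilloma and 0.08 in normal tissue, beside 0.19, 0.15 and 0.12 for all genes. The mean of the 91 genes was 10.50 to 10.88 over the carcinoma arrays, 10.67 to 10.81 over the papilloma arrays and 10.75 to 10.90 over the normal arrays, with carcinoma array 4 lowest and carcinoma array 3 highest in its group. Without carcinoma array 4 the number of members higher in carcinoma was 16, and without carcinoma array 3 it was 6. With normal array 1 as the only normal array, 2 members were higher and 11 lower in carcinoma, and 1 was higher and 5 lower in papilloma, while the share of all genes called was 16.0% in carcinoma and 12.3% in papilloma. No called member changed sign under that setting, which leaves a single array in the normal group, so its spread is assumed to equal that of the tumours. Some changes were larger with that array alone and some smaller. The larger ones included Ndufa7, at -0.60 in carcinoma and -0.59 in papilloma, and Atp5e, at -0.93 in carcinoma and -1.11 in papilloma. They also included Sdhaf3 and Atp5l, at -0.52 and -0.97 in carcinoma, and this list is not complete. The carcinoma calls on Ndufaf4 and Sdhaf2 also ended without any papilloma array, on Ndufa8 without papilloma array 2, 3 or 5 and on Sdhaf3 without papilloma array 2, and the papilloma call on Atp5g3 without carcinoma array 1, 2 or 5, since the fit shares its spread over all groups.

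**Figure D2:**
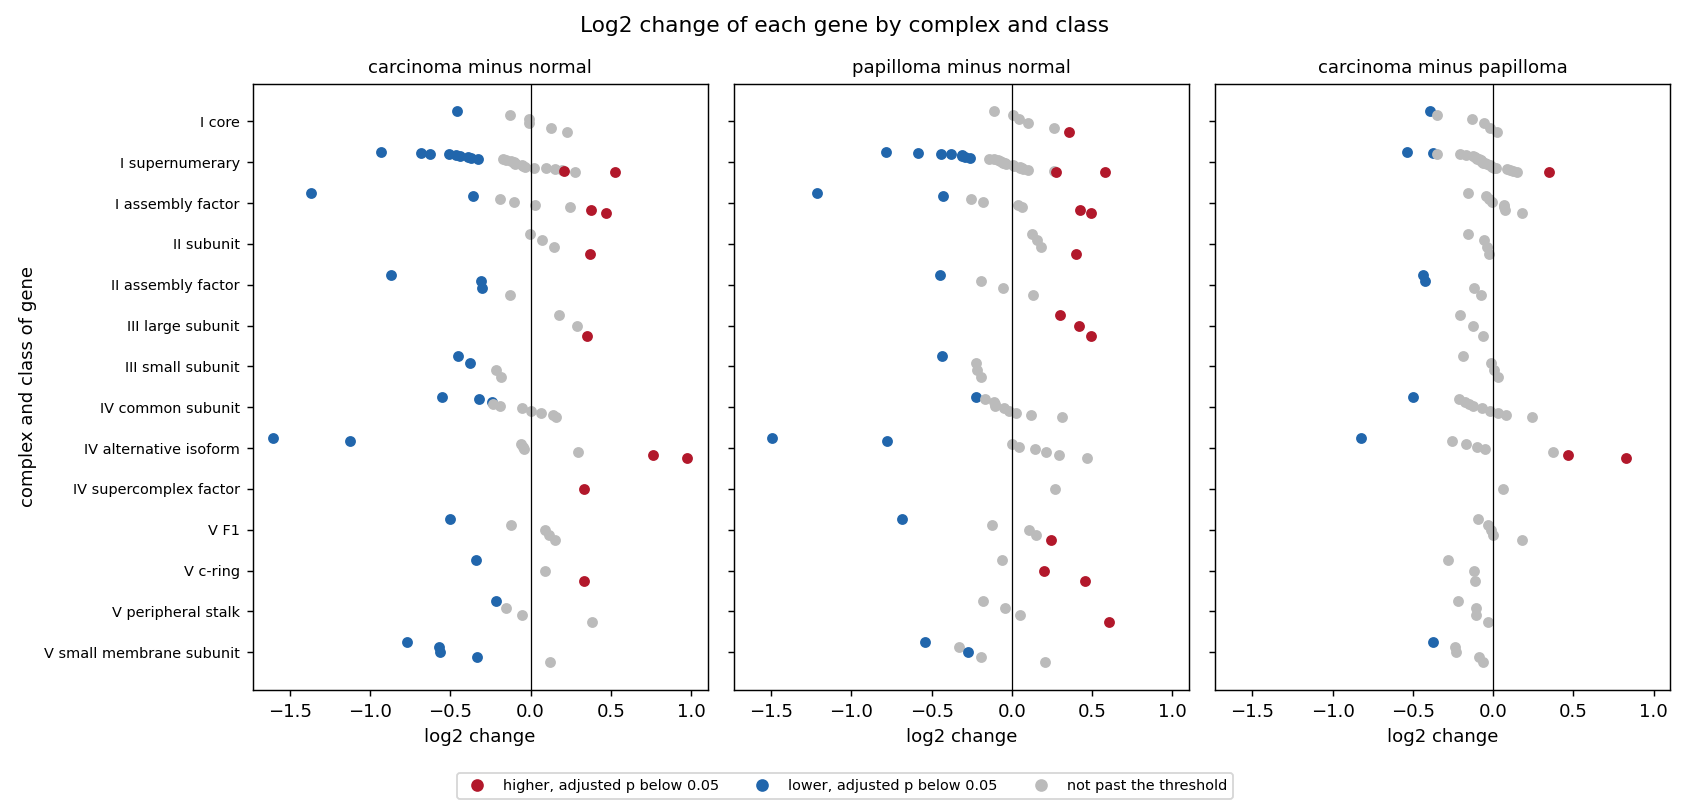
Log2 change of each gene (points) by complex and class of subunit for each tumour type against normal tissue and for carcinoma against papilloma. Red points were higher and blue points lower at an adjusted p under 0.05. The 3 large Uqcr subunits of complex III lie right of 0 against normal tissue, and 4 of the 5 small membrane subunits of complex V are blue in carcinoma.

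Promoter windows were available for 76 of the 91 members. The windows are taken from RefSeq on GRCm38.p6 and run from 250 bases before to 50 bases after the annotated start. They were searched on both strands for 6 short motifs. Genes were counted, and a gene with several windows held a motif if any of them did. The palindromic core of the NRF1 motif, the capitals of the Uqcrc1 window, was found in 19 of 76 members (25%). It was in 7.26% of the 16918 genes tested that had a window. Of the 11 members with a window that were higher in a tumour type 7 held it, and of the 26 lower ones 5 did. The motif CCGGAAG, bound by the ETS family to which GABP belongs, was in 22 members (28.9%), against 12.7% of all those genes. It was in 2 of the 11 higher and 12 of the 26 lower members. The YY1 motif AAGATGGCG was in 7 members (9.21%, against 2.18%), and the motif TNAAGGTCA of the oestrogen-related receptors in 2 (2.63%, against 1.18%). The E-box CACGTG, bound by MYC, was in 6 members (7.89%, against 9.22%). ACGTG, the core of the hypoxia response element and part of that E-box, was in 19 (25%, against 23.8%). These matches are descriptions of letters in a window.

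Windows of 4 members are printed 5′ to 3′ on the gene's strand, with every match to a searched motif in capitals. All 4 hold a match, which is not so for every member that moved. The windows of Cox6b2, with the largest fall in carcinoma, and Ndufa10, with the largest rise in complex I, held no match. Uqcrc1 (chr9:108936398-108936697, plus strand) and Sdhd (chr9:50603800-50604099, minus strand) were called higher in both tumour types and hold the NRF1 motif, Sdhd with an ETS and an oestrogen-related receptor motif as well. Cox8a (chr19:7217567-7217866, minus strand) was called lower in carcinoma and holds the ETS motif at 2 places. Ndufaf3 (chr9:108567387-108567686, minus strand), the member with the smallest adjusted p in both tumour types, holds the ACGTG core alone.
Uqcrc1: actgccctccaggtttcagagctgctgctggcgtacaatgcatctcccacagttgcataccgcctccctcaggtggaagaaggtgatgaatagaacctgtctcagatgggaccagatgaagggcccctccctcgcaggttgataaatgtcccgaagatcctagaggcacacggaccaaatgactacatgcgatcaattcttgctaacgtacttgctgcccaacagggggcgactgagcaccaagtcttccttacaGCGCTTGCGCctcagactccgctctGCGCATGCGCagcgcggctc
Sdhd: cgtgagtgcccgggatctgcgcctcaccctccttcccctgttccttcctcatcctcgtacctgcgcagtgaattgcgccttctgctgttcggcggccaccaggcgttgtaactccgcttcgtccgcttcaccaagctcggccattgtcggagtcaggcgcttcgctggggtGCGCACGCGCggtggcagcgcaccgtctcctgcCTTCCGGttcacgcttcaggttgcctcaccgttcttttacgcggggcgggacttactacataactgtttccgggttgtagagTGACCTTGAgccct
Cox8a: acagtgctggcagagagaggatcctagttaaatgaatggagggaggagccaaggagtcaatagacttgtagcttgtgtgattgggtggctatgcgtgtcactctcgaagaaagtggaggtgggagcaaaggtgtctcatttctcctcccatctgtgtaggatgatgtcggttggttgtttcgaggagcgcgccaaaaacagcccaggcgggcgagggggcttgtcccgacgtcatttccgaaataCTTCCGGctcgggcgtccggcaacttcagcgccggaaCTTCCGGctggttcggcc
Ndufaf3: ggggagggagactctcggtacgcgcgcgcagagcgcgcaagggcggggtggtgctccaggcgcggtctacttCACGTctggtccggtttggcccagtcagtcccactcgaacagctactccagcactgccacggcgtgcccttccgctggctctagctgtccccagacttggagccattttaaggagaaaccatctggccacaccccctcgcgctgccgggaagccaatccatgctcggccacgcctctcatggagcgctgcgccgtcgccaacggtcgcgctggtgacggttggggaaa

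Complex I, the entry point of NADH electrons, had 32 measured subunits and 8 assembly factors. Of the subunits 2 rose and 10 fell in carcinoma, with a median change of -0.10, and 3 rose and 8 fell in papilloma, with a median of -0.04. The calls were 37.5% of the subunits in carcinoma and 34.4% in papilloma, near the 37.9% and 33.2% of all genes. The 6 core subunits gave 1 call against normal tissue in each tumour type. Ndufs1, the largest subunit and part of the electron input arm, rose in papilloma by 0.36 and changed by 0.22 in carcinoma without passing the test. Ndufs8, an iron-sulfur protein next to the quinone site, fell in carcinoma by a log2 change of -0.46 and had -0.11 in papilloma. Ndufv1, the flavoprotein that binds NADH, was called between the tumour types alone. The other 3, Ndufs3, Ndufs7 and Ndufv2, were called in no comparison, with changes between -0.01 and 0.13 in carcinoma and between 0.01 and 0.10 in papilloma.

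Ndufa10, a supernumerary subunit of the membrane arm, showed the largest rise in complex I in both tumour types. Its log2 values were 12.42, 12.53, 12.68, 12.26 and 12.43 in carcinoma, 12.58, 12.52, 12.47, 12.36 and 12.64 in papilloma and 11.998, 11.94, 11.89, 11.89 and 11.95 in normal tissue. Every tumour array lay above every normal array. The change was 0.53 ± 0.08 (SE, limma, adjusted p = 5.14e-05) in carcinoma, or 1.44-fold, and 0.58 ± 0.08 (SE, limma, adjusted p = 2.6e-05) in papilloma, or 1.49-fold. Ndufa8 was the other supernumerary subunit called higher in both, by 0.21 in carcinoma and 0.27 in papilloma, and its second probe set gave 0.34 in carcinoma and 0.46 in papilloma. The carcinoma call on Ndufa8 ended without any of 7 arrays (carcinoma 1, 2 or 3 or normal 2, 3, 4 or 5), at changes of 0.16 to 0.21, and with normal array 1 alone its change was 0.02 in carcinoma and 0.09 in papilloma.

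Among the 26 supernumerary subunits, which surround the core and serve in assembly and stability, 9 fell in carcinoma and 8 in papilloma. Of all genes 19.2% were called lower in carcinoma and 16.3% in papilloma. Ndufa1, an X-linked subunit of the membrane arm, had log2 values of 10.26, 10.004, 10.63, 9.68 and 10.01 in carcinoma, 10.49, 10.53, 10.55, 10.18 and 10.58 in papilloma and 11.14, 11.10, 11.08, 11.03 and 10.90 in normal tissue. The arrays of both tumour types were all below those of normal tissue, and carcinoma array 4 was lowest. The change was -0.93 ± 0.14 (SE, limma, adjusted p = 4.87e-05) in carcinoma and -0.58 ± 0.14 (SE, limma, adjusted p = 0.00347) in papilloma.

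Ndufb7, another subunit of the membrane arm, had 10.21, 10.31, 10.54, 10.06 and 10.53 in carcinoma, 10.88, 10.61, 10.77, 10.63 and 10.62 in papilloma and 11.03, 11.06, 10.97, 10.97 and 11.03 in normal tissue. Every carcinoma array was below every papilloma array, and every papilloma array below every normal array. It fell in carcinoma with a change of -0.68 ± 0.09 (SE, limma, adjusted p = 1.6e-05), and in papilloma the change was -0.31. Ndufa2, a subunit of the hydrophilic arm, had 11.39, 11.05, 11.26, 10.91 and 11.22 in carcinoma, 10.75, 10.75, 10.87, 10.70 and 11.03 in papilloma and 11.78, 11.60, 11.53, 11.46 and 11.67 in normal tissue. Again no tumour array reached the normal range, and papilloma held the lowest values. The change was -0.79 ± 0.10 (SE, limma, adjusted p = 9.21e-06) in papilloma and -0.44 in carcinoma.

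Ndufa3, Ndufa7, Ndufa11, Ndufa13 and Ndufs4 were also lower in both tumour types with no overlap between tumour and normal arrays. Their changes lay between -0.51 (Ndufa13) and -0.33 (Ndufa3) in carcinoma and between -0.44 (Ndufa13) and -0.26 (Ndufa11) in papilloma. The papilloma call on Ndufs4, which is needed for a stable NADH-oxidising module, ended without papilloma array 1, 2 or 5 or normal array 1 or 2, at changes of -0.28 to -0.26. Ndufb8 fell in carcinoma, with -0.63 ± 0.14 (SE, limma, adjusted p = 0.00211), and had -0.09 in papilloma, not past the test. The 15 supernumerary subunits called in neither tumour type had changes between -0.17 (Ndufb10) and 0.28 (Ndufa9) in carcinoma.

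Ndufaf3, an early assembly factor of complex I, gave the smallest adjusted p of the members in both tumour types. It had 10.05, 9.64, 10.03, 10.14 and 10.01 in carcinoma, 9.91, 10.28, 10.18, 10.07 and 10.21 in papilloma and 11.39, 11.36, 11.38, 11.39 and 11.21 in normal tissue. The 10 tumour arrays lay between 9.64 and 10.28 and the normal arrays between 11.21 and 11.39, and the groups did not overlap. The change was -1.37 ± 0.09 (SE, limma, adjusted p = 1.43e-08) in carcinoma, a 2.59-fold fall, and -1.21 ± 0.09 (SE, limma, adjusted p = 6.23e-08) in papilloma, a 2.32-fold fall. Ndufaf4, which works in the same assembly step as Ndufaf3, changed the other way.

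Ndufaf4 changed by 0.38 ± 0.14 (adjusted p = 0.0486) in carcinoma and by 0.42 ± 0.14 (adjusted p = 0.032) in papilloma by limma. Ndufaf1, an assembly factor for the membrane arm, had 9.92, 10.50, 10.60, 10.22 and 9.75 in carcinoma, 10.20, 10.13, 10.11, 10.53 and 10.12 in papilloma and 9.71, 9.94, 9.83, 9.57 and 9.59 in normal tissue. The papilloma arrays were above all normal arrays and the carcinoma arrays overlapped them. It changed by 0.47 ± 0.15 (adjusted p = 0.0198) in carcinoma and 0.49 ± 0.15 (adjusted p = 0.0171) in papilloma by limma. The Ndufaf1 calls ended without carcinoma array 2 or 3 or normal array 4 in carcinoma, at 0.37 to 0.43, and without papilloma array 4 in papilloma, at 0.41.

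The carcinoma call on Ndufaf4 ended without any of 9 arrays (carcinoma 1, 2, 3 or 5 or any normal array), at 0.24 to 0.40, where carcinoma array 4 was the exception, and the papilloma call without any of 7 (papilloma 2, 3 or 5 or normal 2, 3, 4 or 5), at 0.39 to 0.43. Ndufaf8, a further assembly factor, was lower, with changes of -0.36 in carcinoma and -0.43 in papilloma. With normal array 1 alone these Ndufaf8 changes were -0.13 in carcinoma and -0.20 in papilloma and passed no threshold. Ndufaf2, Ndufaf5, Ndufaf6 and Ndufaf7 were called in no comparison.

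Complex II, succinate dehydrogenase, is the enzyme shared by the respiratory chain and the tricarboxylic acid cycle, and all 4 of its subunits are nuclear. Sdhd, a membrane anchor that holds the quinone site, was the single subunit called. It had 12.43, 11.96, 12.55, 11.91 and 12.15 in carcinoma, 12.18, 12.33, 12.14, 12.04 and 12.41 in papilloma and 11.96, 11.86, 11.82, 11.78 and 11.71 in normal tissue. All papilloma arrays were above all normal arrays, while carcinoma overlapped normal tissue through its arrays 2 and 4. The change was 0.37 ± 0.12 (SE, limma, adjusted p = 0.0193) in carcinoma and 0.40 ± 0.12 (SE, limma, adjusted p = 0.0149) in papilloma. The carcinoma call ended without carcinoma array 1 or 3, at 0.29 to 0.31 (limma, adjusted p = 0.052 to 0.0559), and with normal array 1 alone the Sdhd changes were 0.23 in carcinoma and 0.26 in papilloma.

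Sdha, the flavoprotein that oxidises succinate, had 12.79, 12.68, 12.76, 12.06 and 12.76 in carcinoma, 12.71, 12.84, 12.83, 12.75 and 12.71 in papilloma and 12.60, 12.64, 12.56, 12.69 and 12.59 in normal tissue, so that carcinoma array 4 alone stood apart in its group. Its change was -0.00 ± 0.11 (SE, limma, adjusted p = 0.99) in carcinoma and 0.15 ± 0.11 (SE, limma, adjusted p = 0.356) in papilloma. Sdhb, the iron-sulfur subunit, changed by 0.14 ± 0.12 (adjusted p = 0.402) in carcinoma and 0.18 ± 0.12 (adjusted p = 0.307) in papilloma by limma. Sdhc, the other membrane anchor, changed by 0.07 ± 0.08 (adjusted p = 0.568) in carcinoma and 0.13 ± 0.08 (adjusted p = 0.287) in papilloma by limma. Those 3 subunits passed the test in no comparison.

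Of the 4 assembly factors of complex II 3 fell in carcinoma and 1 in papilloma, beside 19.2% and 16.3% of all genes called lower. Sdhaf4, which helps mature Sdha enter the complex, had 9.504, 9.52, 9.33, 8.92 and 9.36 in carcinoma, 9.52, 9.74, 10.01, 9.74 and 9.74 in papilloma and 10.22, 10.29, 10.08, 10.17 and 10.24 in normal tissue. No tumour array reached the normal range, and every carcinoma array was below the lowest papilloma array. The change was -0.87 ± 0.11 (SE, limma, adjusted p = 9.57e-06) in carcinoma and -0.45 ± 0.11 (SE, limma, adjusted p = 0.00441) in papilloma. Sdhaf2, which attaches the flavin to Sdha, and Sdhaf3, which protects Sdhb during assembly, had -0.30 and -0.31 in carcinoma. These 2 calls ended without any of 8 arrays for Sdhaf2 (carcinoma 1, 2 or 5 or any normal array), at -0.32 to -0.21, and without any of 6 for Sdhaf3 (carcinoma 1 or 2 or normal 1, 2, 4 or 5), at -0.32 to -0.25.

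Complex III passes electrons from coenzyme Q to cytochrome c. The 3 large nuclear subunits among the members all rose in papilloma, and 1 of them in carcinoma. Of the 4 small subunits among the members 2 fell in carcinoma and 1 in papilloma. The calls were 42.9% of the 7 members in carcinoma and 57.1% in papilloma, beside 37.9% and 33.2% of all genes. Uqcrc1, a core protein, had 12.999, 12.95, 13.26, 12.98 and 13.15 in carcinoma, 13.20, 13.10, 13.17, 12.99 and 13.20 in papilloma and 12.78, 12.74, 12.79, 12.68 and 12.59 in normal tissue. Every tumour array exceeded every normal array. The change was 0.35 ± 0.08 (SE, limma, adjusted p = 0.00133) in carcinoma and 0.42 ± 0.08 (SE, limma, adjusted p = 0.000388) in papilloma.

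Uqcrfs1, the Rieske iron-sulfur protein, had 10.65, 10.43, 10.92, 10.17 and 10.17 in carcinoma, 10.64, 10.79, 10.61, 10.42 and 10.90 in papilloma and 10.41, 10.21, 10.22, 10.03 and 10.02 in normal tissue. The papilloma arrays were above the normal arrays, and carcinoma overlapped normal tissue through its arrays 4 and 5. It rose in papilloma by 0.49 ± 0.14 (SE, limma, adjusted p = 0.0113) and changed by 0.29 in carcinoma without passing the test, and with normal array 1 alone the papilloma change was 0.26. Uqcrc2, the second core protein, rose by 0.30 in papilloma and changed by 0.18 in carcinoma, not past the test.

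Of the 4 small subunits, Uqcrq, which binds next to cytochrome b, fell by a log2 change of -0.45 in carcinoma and -0.44 in papilloma. Its values were 8.68, 8.66, 8.86, 8.19 and 8.41 in carcinoma, 8.74, 8.58, 8.57, 8.37 and 8.605 in papilloma and 9.23, 9.05, 8.996, 8.89 and 8.89 in normal tissue, with no tumour array inside the normal range. Uqcr11, the smallest subunit, was lower in carcinoma with a change of -0.38, a call that ended without carcinoma array 2 or normal array 1 at -0.34. Uqcrb and Uqcrh had changes of -0.22 and -0.19 in carcinoma and of -0.22 and -0.22 in papilloma, and were not called.

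Complex IV, cytochrome c oxidase, hands electrons to oxygen. Many of its nuclear subunits exist as a common form and as an alternative form made in certain tissues or conditions. Of the 10 common subunits 3 were lower in carcinoma and 1 in papilloma, with medians of -0.12 and -0.08. These were 30% and 10% of them, beside 19.2% and 16.3% of all genes called lower. Cox4i1, the common form of subunit 4, had 11.95, 12.14, 12.01, 11.45 and 12.41 in carcinoma, 12.55, 12.45, 12.49, 12.42 and 12.53 in papilloma and 12.72, 12.53, 12.52, 12.41 and 12.51 in normal tissue. All carcinoma arrays were below the lowest papilloma and normal arrays, with carcinoma array 4 lowest. The change was -0.55 ± 0.13 (SE, limma, adjusted p = 0.00284) in carcinoma and -0.05 ± 0.13 (SE, limma, adjusted p = 0.821) in papilloma.

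Cox8a and Cox7a2, the common forms of subunits 8 and 7a, fell in carcinoma, with changes of -0.32 ± 0.08 (adjusted p = 0.00505) and -0.24 ± 0.08 (adjusted p = 0.0203) by limma, and had -0.11 and -0.17 in papilloma, not past the test. Cox7b, a small X-linked subunit, fell in papilloma with a change of -0.22. That call ended without any of 8 arrays (papilloma 1, 2, 3 or 5 or normal 1, 3, 4 or 5), at -0.23 to -0.17, and the second probe set of Cox7b gave 0.03 in papilloma. The other 6 common subunits, Cox5a, Cox5b, Cox6a1, Cox6b1, Cox7c and Ndufa4, were not called in any comparison.

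The alternative forms held the widest changes of complex IV. Cox4i2, the form of subunit 4 known from lung and from oxygen sensing, had 9.07, 8.79, 8.98, 9.66 and 9.02 in carcinoma, 8.31, 8.44, 8.16, 7.99 and 8.47 in papilloma and 8.09, 8.07, 7.92, 8.05 and 8.52 in normal tissue. All carcinoma arrays were above all others, and papilloma overlapped normal tissue, where array 5 was high. The change was 0.97 ± 0.15 (SE, limma, adjusted p = 8.09e-05) in carcinoma, or 1.96-fold, and 0.14 ± 0.15 (SE, limma, adjusted p = 0.547) in papilloma. Ndufa4l2, a relative of Ndufa4 known as a target of hypoxia-inducible factor, had 7.86, 7.06, 7.22, 7.74 and 7.41 in carcinoma, 7.38, 6.95, 6.97, 6.78 and 6.89 in papilloma and 6.72, 6.71, 6.61, 6.65 and 6.805 in normal tissue. Carcinoma was above normal tissue on every array, and papilloma overlapped both. All 5 normal arrays had Ndufa4l2 below the array median, so its level there was not shown to be above background, which bears on its changes and on its difference from Ndufa4. The change was 0.76 ± 0.14 (SE, limma, adjusted p = 0.000442) in carcinoma and 0.29 ± 0.14 (SE, limma, adjusted p = 0.137) in papilloma.

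Both genes are known from pericytes of mouse brain. Markers of pericytes and smooth muscle, with 6 of 6 measured, were higher in 5 and lower in 0 genes in carcinoma, and higher in 3 and lower in 1 in papilloma. The shares of all genes were 18.7% higher and 19.2% lower in carcinoma, and 17.0% and 16.3% in papilloma. The array means of these markers were 9.73 to 10.06 in carcinoma, 9.22 to 9.64 in papilloma and 8.71 to 9.06 in normal tissue. Their part in the changes of Cox4i2 and Ndufa4l2 was not tested.

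Cox6b2, known as the testis form of subunit 6b, showed the largest fall of all members in carcinoma. It had 8.62, 8.75, 9.28, 9.10 and 7.80 in carcinoma, 9.49, 9.52, 9.56, 9.35 and 9.74 in papilloma and 10.29, 10.36, 10.30, 10.26 and 10.34 in normal tissue. The 3 groups did not overlap at all, and carcinoma array 5 was lowest. The change was -1.60 ± 0.20 (SE, limma, adjusted p = 6.93e-06) in carcinoma, a 3.04-fold fall, and -0.78 ± 0.20 (SE, limma, adjusted p = 0.00532) in papilloma, a 1.72-fold fall.

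Cox7a1, known as the heart and skeletal muscle form of subunit 7a, had 9.504, 9.92, 10.56, 8.63 and 11.32 in carcinoma, 9.69, 9.60, 9.73, 9.07 and 9.98 in papilloma and 11.44, 11.13, 11.03, 10.97 and 10.98 in normal tissue. All papilloma arrays were below all normal arrays, whereas carcinoma ranged widely and its array 5 lay inside the normal range. The change was -1.12 ± 0.36 (SE, limma, adjusted p = 0.02) in carcinoma, 2.18-fold, and -1.497 ± 0.36 (SE, limma, adjusted p = 0.00362) in papilloma, 2.82-fold. Without carcinoma array 1 the carcinoma change was -1.003 (limma, adjusted p = 0.0528). Markers of striated muscle, with 8 of 8 measured, had array means close to the array medians. These means were 6.799 to 7.12 in carcinoma, 6.95 to 7.14 in papilloma and 6.93 to 7.04 in normal tissue. Of the 8 genes 1 was higher and 1 lower in carcinoma, beside 18.7% and 19.2% of all genes. None was called in papilloma, beside 33.2% of all genes.

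Cox8b, the muscle and brown fat form of subunit 8, changed by 0.30 ± 0.21 (adjusted p = 0.311) in carcinoma and 0.47 ± 0.21 (adjusted p = 0.113) in papilloma by limma. Cox6a2, another muscle form, changed by -0.05 ± 0.09 (adjusted p = 0.74) in carcinoma and 0.00 ± 0.09 (adjusted p = 0.99) in papilloma by limma. Neither passed the test. Of 2 brown fat markers, Cidea changed by 1.12 in carcinoma and 0.86 in papilloma, and Ucp1 by -0.24 in carcinoma and -0.13 in papilloma, of which the last did not pass. The testis forms Cox7b2 and Cox8c lay below the array median on every array, as did Ndufs5 and Atp5j2, and none of these 4 was called. Cox7a2l, which joins complexes III and IV in supercomplexes, rose in carcinoma by 0.33 ± 0.11 (SE, limma, adjusted p = 0.0199) and had 0.27 in papilloma. The Cox7a2l call ended without normal array 2, at 0.26 (limma, adjusted p = 0.0592), and with normal array 1 alone the change was 0.19.

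**Figure D3:**
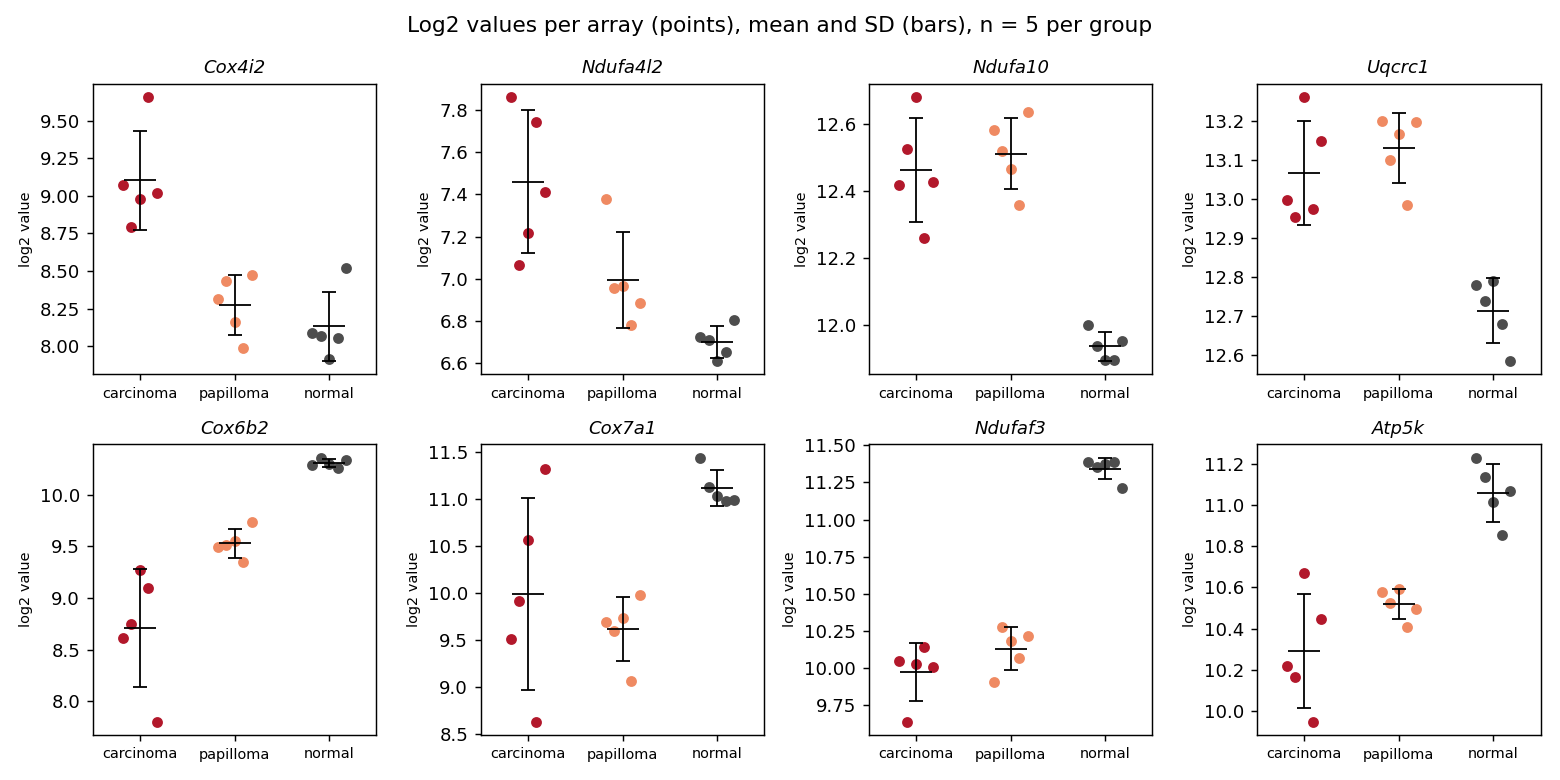
Log2 value per array (points) of 8 genes in carcinoma, papilloma and normal tissue, with the mean and SD of the 5 arrays of each group. Cox4i2 is high in carcinoma, Ndufa10 and Uqcrc1 are higher in both tumour types, and Cox6b2, Ndufaf3 and Atp5k are lower in both without overlap with normal tissue.

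For 6 pairs, an alternative and a common form were compared by the difference of their log2 values on each array, so that only changes and no levels were compared. An exact two-sided permutation test over the 252 ways to split 10 arrays was adjusted over 18 tests, and its smallest possible p is 0.00794. Cox4i2 gained on Cox4i1 by 1.52 ± 0.31 in carcinoma (SE, exact p = 0.00794, adjusted p = 0.0179), and by 0.19 ± 0.14 in papilloma (exact p = 0.206). Ndufa4l2 gained on Ndufa4 by 0.996 ± 0.22 in carcinoma and 0.40 ± 0.11 in papilloma, each at the smallest possible exact p. Cox6b2 lost against Cox6b1, with -1.67 ± 0.28 in carcinoma and -0.76 ± 0.08 in papilloma, again each at that smallest exact p.

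Cox7a1 lost against Cox7a2 in papilloma, with -1.33 ± 0.15 at the smallest possible exact p, and the carcinoma difference of -0.89 ± 0.43 did not pass (exact p = 0.0873, adjusted p = 0.131). Cox8b gained on Cox8a in papilloma by 0.57 ± 0.17 (exact p = 0.0159, adjusted p = 0.0317), and the difference in carcinoma was 0.62 ± 0.27 (exact p = 0.0556, adjusted p = 0.0909). The Cox8b call in papilloma ended without papilloma array 3 or 4 or normal array 2 or 4, at 0.49 to 0.55. Cox7a1 against Cox7a2 in carcinoma passed without carcinoma array 5, at -1.22, and Cox8b against Cox8a in carcinoma without carcinoma array 4, at 0.83. Cox6a2 and Cox6a1 differed by 0.01 ± 0.15 in carcinoma and -0.12 ± 0.13 in papilloma, with no call.

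**Figure D4:**
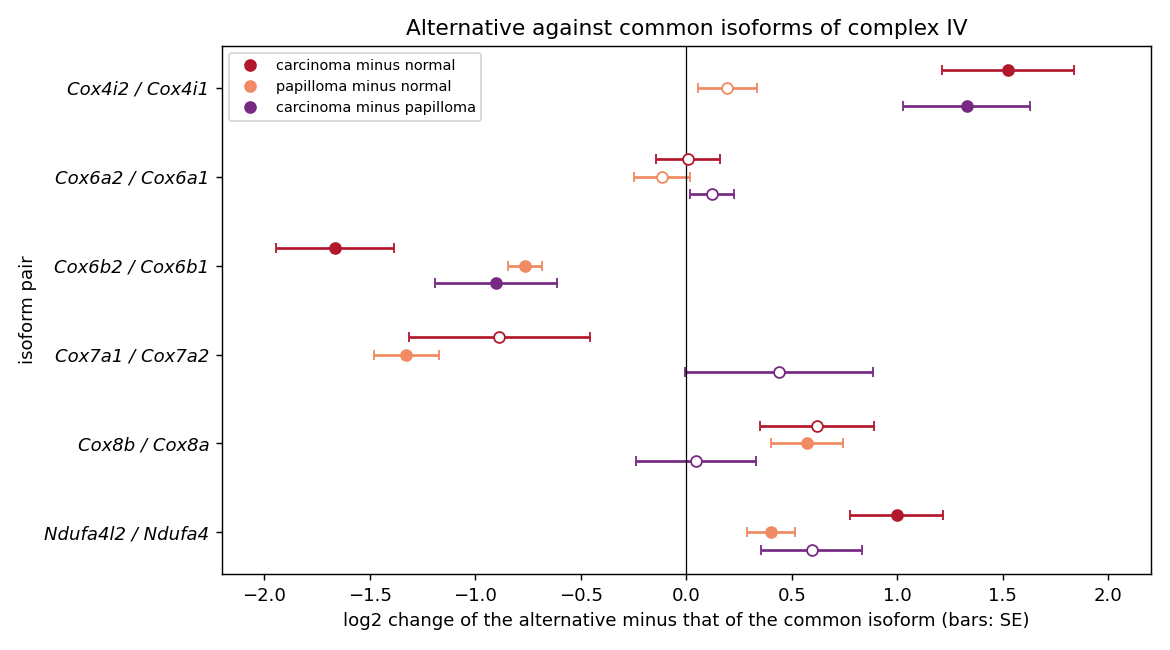
Log2 change of the alternative form minus that of the common form for 6 pairs of complex IV genes (points, with SE as bars) for each tumour type against normal tissue and for carcinoma against papilloma. Filled points have an adjusted exact p under 0.05. Cox4i2 and Ndufa4l2 lie right of 0 in carcinoma, Cox6b2 lies left of 0 in all 3 comparisons, and Cox7a1 left of 0 in papilloma.

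Complex V, the ATP synthase, joins the catalytic F1 head to a ring of c subunits in the membrane through a central and a peripheral stalk. Of its 17 genes 1 rose and 7 fell in carcinoma, with a median of -0.12, and 4 rose and 3 fell in papilloma, with a median of -0.04. The calls were 47.1% of the genes in carcinoma and 41.2% in papilloma, beside 37.9% and 33.2% of all genes. Atp5o, the peripheral stalk subunit that holds the F1 head, had 8.88, 8.26, 8.93, 8.12 and 8.80 in carcinoma, 9.08, 8.67, 8.83, 8.55 and 8.96 in papilloma and 8.34, 8.38, 8.08, 8.14 and 8.14 in normal tissue. Papilloma lay above normal tissue, and carcinoma ranged from within normal values to well above. It rose in papilloma by 0.60 ± 0.15 (SE, limma, adjusted p = 0.00588), and the carcinoma change of 0.38 did not pass.

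Atp5g2, a gene for the c subunit, was higher in both tumour types with 12.74, 12.68, 12.74, 12.93 and 12.62 in carcinoma, 12.92, 12.90, 12.87, 12.85 and 12.79 in papilloma and 12.44, 12.44, 12.43, 12.42 and 12.32 in normal tissue. All tumour arrays were above all normal arrays. The change was 0.33 in carcinoma and 0.45 ± 0.06 (SE, limma, adjusted p = 4.02e-05) in papilloma, and a second probe set gave 0.28 in carcinoma and 0.39 in papilloma. The other genes for the same protein were Atp5g1, lower in carcinoma with -0.34, and Atp5g3, higher in papilloma by 0.20. Both calls were lost without single arrays: that on Atp5g1 without carcinoma 1, 2 or 5 or normal 1, 2, 3 or 4, at -0.35 to -0.28, and that on Atp5g3 without papilloma 1, 3 or 5 or normal 3, 4 or 5, at 0.16 to 0.20. With normal array 1 alone the Atp5g3 change was 0.12.

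In the F1 head, Atp5a1, the alpha subunit, rose in papilloma by 0.24. The catalytic Atp5b, together with Atp5c1 and Atp5d, was not called, with changes between -0.13 and 0.15 in both tumour types. Atp5e, the smallest F1 subunit, had 10.93, 10.65, 10.73, 10.28 and 10.26 in carcinoma, 10.63, 10.42, 10.47, 9.98 and 10.43 in papilloma and 11.50, 11.04, 11.06, 10.86 and 10.91 in normal tissue. Papilloma was below normal tissue throughout, and carcinoma array 1 reached the normal range. The change was -0.50 in carcinoma and -0.69 ± 0.15 (SE, limma, adjusted p = 0.00227) in papilloma, and a second probe set gave -0.10 in carcinoma and -0.15 in papilloma.

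The small membrane subunits help ATP synthase form dimers along the cristae, and 4 of 5 fell in carcinoma and 2 in papilloma. Of all genes 19.2% were called lower in carcinoma and 16.3% in papilloma. Atp5k had 10.22, 10.16, 10.67, 9.95 and 10.44 in carcinoma, 10.58, 10.52, 10.59, 10.41 and 10.49 in papilloma and 11.23, 11.13, 11.01, 10.85 and 11.06 in normal tissue, with no tumour array inside the normal range. The change was -0.77 ± 0.11 (SE, limma, adjusted p = 4.74e-05) in carcinoma and -0.54 ± 0.11 (SE, limma, adjusted p = 0.00138) in papilloma. Atp5l, Atp5md and Atp5mpl fell in carcinoma by log2 changes of -0.57, -0.34 and -0.57, and Atp5md fell in papilloma with -0.27. Atp5h of the peripheral stalk was called lower in carcinoma with -0.21, but its second probe set gave 0.17, and the call ended without carcinoma array 4 or normal array 2, at -0.19 to -0.17.

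Carcinoma and papilloma, which differ in p53fl/fl, were closer to each other. Of the members 3 were higher and 8 lower in carcinoma, or 12.1%, beside 11.4% of all genes (6.24% higher and 5.17% lower). The median change was -0.07, against -0.03 for all genes, and 7 members had no overlap between the groups, beside 7.90% of all genes. These calls rest on the spread shared with the normal arrays. With the carcinoma and papilloma arrays alone in the fit 1 member was higher and 1 lower, beside 5.99% of all genes called, and with a variance for each group none was called, where 3 higher and 10 lower members had an unadjusted p under 0.05 and 135 genes of 22180 passed in all.

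The higher members were Cox4i2 with 0.83 ± 0.15 (SE, limma, adjusted p = 0.00225), Ndufa4l2 with 0.47 ± 0.14 (SE, limma, adjusted p = 0.0452) and Ndufa2 with 0.35 ± 0.10 (SE, limma, adjusted p = 0.0301). Cox4i2 was higher on every carcinoma array than on any papilloma array. Without any of 7 arrays the Ndufa4l2 call ended (carcinoma 1, 4 or 5 or papilloma 2, 3, 4 or 5), at 0.37 to 0.48, and it also ended without any single normal array, at an unchanged 0.47 (limma, adjusted p = 0.0574 to 0.0605). The Ndufa2 call ended without carcinoma 1, 3 or 5 or papilloma 1, 2, 3 or 4, at 0.29 to 0.36. Without carcinoma array 1 or 5 or papilloma array 2, 3 or 4 the higher count was 1. Pericyte and smooth muscle markers were higher in carcinoma for 2 of 6 genes, beside 6.24% of all genes. The part of these markers in the changes of Cox4i2 and Ndufa4l2 was not tested. Between pairs of isoforms, Cox4i2 gained on Cox4i1 by 1.33 ± 0.30 and Cox6b2 lost against Cox6b1 with a difference of -0.90 ± 0.29, each at the smallest possible exact p of 0.00794 (adjusted p = 0.0179). The call on Cox6b2 against Cox6b1 ended without papilloma array 2, 3, 4 or 5, at -0.93 to -0.84. With all arrays the groups did not overlap in this difference, and leaving out 1 array also leaves fewer ways to split. Why this call ended was not tested. Ndufa4l2 against Ndufa4 gave 0.59 ± 0.24 and did not pass (exact p = 0.0317, adjusted p = 0.0571), except without papilloma array 1, at 0.698.

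The lower members were Cox6b2 with -0.82 ± 0.20 (adjusted p = 0.0124), Ndufb8 with -0.54 ± 0.14 (adjusted p = 0.0219), Cox4i1 with -0.50 ± 0.13 (adjusted p = 0.0203) and Sdhaf2 with -0.44 ± 0.11 (adjusted p = 0.0198) by limma. They also included Sdhaf4 with -0.42 ± 0.11 (adjusted p = 0.0207), Ndufv1 with -0.39 ± 0.10 (adjusted p = 0.0244), Atp5mpl with -0.38 ± 0.09 (adjusted p = 0.0126) and Ndufb7 with -0.37 ± 0.09 (adjusted p = 0.014) by limma. Cox6b2, Cox4i1, Sdhaf2, Sdhaf4, Atp5mpl and Ndufb7 were lower on every carcinoma array than on any papilloma array, and Ndufv1 and Ndufb8 overlapped. Ndufv1 had 11.86, 11.79, 12.42, 11.90 and 11.81 in carcinoma, 12.32, 12.43, 12.38, 12.18 and 12.41 in papilloma and 12.19, 12.08, 12.11, 12.01 and 12.02 in normal tissue, with carcinoma array 3 inside the papilloma range.

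Single arrays ended 4 of these calls. For Ndufv1 they were carcinoma 1, 2 or 5 or papilloma 2, 3 or 5, at -0.38 to -0.35, for Ndufb8 carcinoma 1 or papilloma 1, at -0.51 to -0.50, for Sdhaf2 carcinoma 2, at -0.39, and for Sdhaf4 papilloma 3, at -0.36. Papilloma arrays 2 and 4 had raised neuron markers, with means of 9.83 and 8.93 over 7 genes, beside 7.33 to 7.68 on the other 3 papilloma arrays and 7.43 to 8.02 in carcinoma and 8.63 to 9.08 in normal tissue. Without both arrays 1 member was higher and 4 were lower in carcinoma, and the part of neuron markers in the calls was not tested.

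Of the 8 lower members 6 lie on chromosomes 8, 12 and 19, which earlier results of these data had shown to be shifted down in carcinoma. The median shift of their genes from the normal mean was not alike on all carcinoma arrays, with -0.23 to 0.01 for chromosome 8, -0.28 to -0.01 for chromosome 12 and -0.19 to 0.05 for chromosome 19. Carcinoma array 5 was highest for chromosome 8, and carcinoma array 4 for chromosomes 12 and 19. The 6 members are Cox4i1 and Ndufb7 on chromosome 8, Atp5mpl on chromosome 12, and Ndufb8, Ndufv1 and Sdhaf2 on chromosome 19. Of the 11 members on these chromosomes 0 were higher and 6 lower, with a median of -0.37, while of the 80 elsewhere 3 were higher and 2 lower, with a median of -0.05. All 2504 genes on the 3 chromosomes gave 56 higher and 394 lower, with a median of -0.13. Against normal tissue 9 of the 11 fell in carcinoma and 3 in papilloma, beside 689 and 404 of all 2504 genes there.

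The median of the 11 members, relative to the normal mean, was -0.40, -0.40, -0.15, -0.27 and -0.49 in carcinoma arrays 1 to 5, and -0.12, -0.11, -0.08, -0.12 and -0.06 in papilloma arrays 1 to 5. Each carcinoma array was thus below each papilloma array, with carcinoma array 3 nearest. For the 80 other members the medians were -0.02, -0.04, 0.10, -0.22 and -0.01 in carcinoma and 0.07, 0.04, -0.00, -0.08 and 0.05 in papilloma. With the median shift of its chromosome removed from each gene, 5 members were still lower in carcinoma than in papilloma, and the calls on Ndufv1, Ndufb7 and Atp5mpl ended, at changes of -0.28, -0.24 and -0.26 (limma, adjusted p = 0.106, 0.0521 and 0.144). Copy number was not measured, and its part in these changes was not tested.

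**Figure D5:**
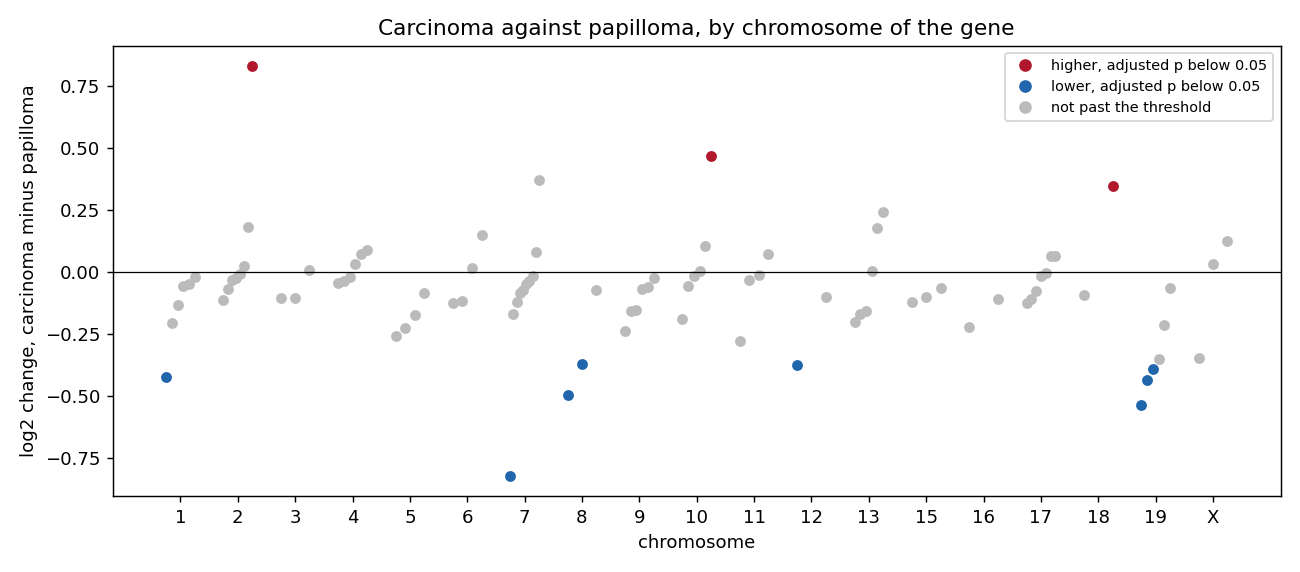
Log2 change of each gene in carcinoma minus papilloma (points) by the chromosome that carries it. Red points were higher and blue points lower at an adjusted p under 0.05, and 6 of the 8 blue points lie on chromosomes 8, 12 and 19.

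The genes around the complexes were described from lists of known members, by counts and medians. For all of these lists, the shares of all genes are the background. In carcinoma 18.7% of all genes were called higher and 19.2% lower, and in papilloma 17.0% and 16.3%. Between the tumour types 6.24% were called higher and 5.17% lower in carcinoma. Of 35 measured assembly factors outside the symbol rule 16 rose and 11 fell in carcinoma (median 0.16), and 16 rose and 6 fell in papilloma (median 0.22). Sco1, a copper chaperone of complex IV, rose by 0.97 ± 0.10 (adjusted p = 1.61e-06) in carcinoma and 0.92 ± 0.10 (adjusted p = 3.77e-06) in papilloma by limma. Acad9, an assembly factor of complex I, rose by 0.82 in carcinoma and 1.13 in papilloma, and Taco1, a translation activator of a mitochondrial complex IV subunit, by 0.71 in carcinoma. Pet100, an assembly factor of complex IV, went the other way with -1.30 ± 0.11 (adjusted p = 9.22e-08) in carcinoma and -0.92 ± 0.11 (adjusted p = 4.6e-06) in papilloma by limma. Between the tumour types 0 were higher and 5 lower in carcinoma, with Nubpl, which inserts iron-sulfur clusters into complex I, at -0.65.

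Of 16 genes for electron carriers and coenzyme Q synthesis 5 rose and 2 fell in carcinoma (median 0.07), and 9 rose and 1 fell in papilloma (median 0.29). Coq8a, a kinase-like protein of coenzyme Q synthesis, rose by 1.21 ± 0.10 (adjusted p = 1.71e-07) in carcinoma and 1.67 ± 0.10 (adjusted p = 5.82e-09) in papilloma by limma, while its relative Coq8b fell with changes of -0.25 in carcinoma and -0.47 in papilloma. Of 18 genes of the tricarboxylic acid cycle, with its feeding enzymes, 9 rose and 2 fell in carcinoma (median 0.27), and 12 rose and 1 fell in papilloma (median 0.42). Suclg2, a subunit of succinyl-CoA synthetase, rose by 1.12 in carcinoma and 1.20 in papilloma. Pcx, which makes oxaloacetate from pyruvate, fell in carcinoma with -0.93 ± 0.15 (adjusted p = 9.24e-05) by limma.

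Of 14 genes for the fate of pyruvate and lactate 7 rose and 1 fell in carcinoma (median 0.28), and 6 rose and 0 fell in papilloma (median 0.23). Hk2, a hexokinase that starts glycolysis, rose by 2.03 ± 0.31 (adjusted p = 7.34e-05) in carcinoma and 1.71 ± 0.31 (adjusted p = 0.000424) in papilloma by limma. Slc16a1, a lactate transporter, rose by 0.96 in carcinoma and 0.97 in papilloma. Mpc1, part of the mitochondrial pyruvate carrier, fell in carcinoma with a change of -0.57. Slc16a3, a lactate exporter, was higher in carcinoma than in papilloma by 0.79 ± 0.17 (adjusted p = 0.00705) by limma.

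Import and chaperone genes of mitochondria had the highest median of these 8 lists in both tumour types, with 14 of 17 higher in carcinoma (median 0.56) and 14 of 17 in papilloma (median 0.60), and none lower. Hspd1, the chaperonin HSP60, rose by 1.22 ± 0.06 (adjusted p = 5.49e-10) in carcinoma and 1.26 ± 0.06 (adjusted p = 4.14e-10) in papilloma by limma. Phb2, a prohibitin of the inner membrane, rose by 1.26 in carcinoma and 1.21 in papilloma. Of 20 regulators of mitochondrial biogenesis 9 rose and 1 fell in carcinoma (median 0.25), and 9 rose and 0 fell in papilloma (median 0.33). Twnk, the helicase of mitochondrial DNA, rose by 1.29 in carcinoma and 1.61 in papilloma, and Tfb2m, a mitochondrial transcription factor, by 1.21 in carcinoma and 1.54 in papilloma. Esrra, an oestrogen-related receptor, fell in carcinoma with -0.56 against normal tissue and -0.57 against papilloma.

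Of 12 genes of supercomplexes and cristae, which include the member Cox7a2l, 6 rose and 2 fell in carcinoma (median 0.26), and 4 rose and 2 fell in papilloma (median 0.25). Opa1, which shapes cristae, rose by 0.50 in carcinoma and 0.54 in papilloma, and Apoo, a cristae junction protein, fell in carcinoma with -0.74. Of 17 carriers of the mitochondrial membranes 3 rose and 3 fell in carcinoma (median -0.03), and 1 rose and 0 fell in papilloma (median 0.10). The calls were 35.3% of this list in carcinoma and 5.88% in papilloma, below the 37.9% and 33.2% of all genes. Slc25a10, the dicarboxylate carrier, rose in carcinoma by 0.69, and Vdac2, a channel of the outer membrane, rose in papilloma by 0.42.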

How the data were processed

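Total RNA of 15 snap-frozen tissues, 5 carcinomas, 5 papillomas and 5 normal choroid plexuses, called biological replicates per the labels, was hybridised to 1 Affymetrix array each. Normal arrays 2 to 5 held transcripts of both sexes, so 1 mouse per array is not shown for them, and p-values measure the spread between these samples. The deposited log2 values are RMA summaries made with Affymetrix Expression Console, per the submitters' processing notes. RMA brings the arrays to 1 intensity distribution, so a change of all RNA is removed and changes of dim probe sets are compressed. The sources used here do not give the genome build of the probe sets. Arrays have no read depth, and their number limits the precision.

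Of 41345 probe sets 23521 had exactly 1 symbol in the platform annotation, and the set with the highest mean stood for each of 22180 genes. Of the 23521, 23328 were named through RefSeq by Entrez identifier. limma 3.58.1 in R 4.3.3 was fitted to all genes and 15 arrays with the group as its only term (12 residual and 3.35 prior degrees of freedom), and p-values were adjusted by Benjamini-Hochberg with a threshold of 0.05. The fit was tested on simulated data. Isoform pairs were tested by exact permutation over arrays. Promoter windows and chromosomes came from RefSeq's tables of GRCm38.p6. Members, lists and chromosomes were chosen with earlier results of these data known.

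Full statistics are given, per comparison, for up to 8 largest rises and 8 largest falls among called members, for the 4 subunits of complex II and for the isoform pairs, and of each other list for up to 3 genes that moved furthest with the list and 1 that moved against it. Alternatives were a replicate block, trended and robust moderation, array weights, only the groups compared, quantile normalization, a common median, a filter on dim genes, all probe sets, the mean of probe sets, unpooled variance, removal of chromosome shifts, normal array 1 alone, papilloma arrays 2 and 4 left out, and each array left out in turn.

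Replicate numbers in the titles are not stated to pair animals.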

Additional observations from a re-analysis of the deposited data

Results flagged for a closer look

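Among the 35 members named with statistics, each of the 3 groups was checked for an array far from the other 4 by Dixon's criterion. Of 105 groups 11 held such an array, where chance gives about 1 in 20. Normal array 5 was low for Atp5g2 (log2 12.32, nearest other value 12.42) and for Ndufaf3 (11.21, nearest 11.36), and high for Cox4i2 (8.52, nearest 8.09). Normal array 1 was high for Cox7a2 (12.95, nearest 12.87). Carcinoma array 4 was low for Sdha (12.06, nearest 12.68) and for Cox6b1 (11.80, nearest 12.10). Carcinoma array 2 was low for Ndufaf3 (9.64, nearest 10.01), and carcinoma array 3 was high for Ndufv1 (12.42, nearest 11.90). Papilloma array 4 was low for Ndufa1 (10.18, nearest 10.49) and high for Ndufaf1 (10.53, nearest 10.20), and papilloma array 1 was low for Cox6a2 (6.99, nearest 7.13). Papilloma array 4 is also 1 of the 2 papilloma arrays with raised neuron markers, whose part in these values was not tested.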

How the results depend on the processing

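No called member changed sign under any alternative. Of the single-gene values, 2051 kept their side of the threshold, 143 lost it and 18 gained it. In carcinoma against normal tissue, where 10 members rose and 29 fell, array weights gave 18 higher, unpooled variance gave 5 higher and 19 lower, and normal array 1 alone gave 2 higher and 11 lower. Leaving out each array in turn gave 6 to 16 higher and 25 to 34 lower. In papilloma, with 13 higher and 18 lower, only the groups compared gave 19 higher and 24 lower, unpooled variance 18 and 24, and normal array 1 alone 1 and 5, and leaving out each array gave 11 to 17 higher and 16 to 23 lower. In carcinoma against papilloma, with 3 higher and 8 lower, the higher count was 1 with only the groups compared, 1 over all probe sets, 0 with unpooled variance, 1 with normal array 1 alone and 1 without papilloma arrays 2 and 4. The lower count was 1 with only the groups compared, 0 with unpooled variance, 5 with chromosome shifts removed, 1 with normal array 1 alone and 4 without papilloma arrays 2 and 4. Leaving out each array gave 1 to 3 higher and 6 to 12 lower. A filter on dim genes left 87 members, ended 0 calls and added 6 in carcinoma, 5 in papilloma and 1 between the tumour types. The settings with normal array 1 alone, only the groups compared, papilloma arrays 2 and 4 left out or each array left out use fewer arrays. Why the counts moved was not tested for any setting. Leaving out each array moved the difference of changes of Cox6b2 and Cox6b1 in carcinoma against papilloma between -1.07 and -0.68, of Cox7a1 and Cox7a2 in carcinoma between -1.22 and -0.61, and of Cox8b and Cox8a between 0.46 and 0.83 in carcinoma and between 0.49 and 0.67 in papilloma. For Ndufa4l2 and Ndufa4 in carcinoma against papilloma it lay between 0.44 and 0.70. The replicate block gave 12 higher and 26 lower in carcinoma, 13 and 18 in papilloma, and 3 and 8 between the tumour types. Arrays with the same replicate number correlated in their deviations from the group means at -0.10 to 0.14 over 15 pairs. The range was -0.15 to 0.17 for 60 pairs with different numbers. These ranges overlap, and correlations over all genes in so few pairs cannot decide whether the numbers pair animals.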
